A study of Mus musculus with 6 samples.

Results

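Retinoic acid genes were compared across immortalized mouse embryonic fibroblasts (iMEF), cells that no longer stop dividing in culture, with and without nardilysin (Nrdc), a metalloendopeptidase that also acts as a transcriptional coregulator. The 9 genes were the rows of the deposited RNA-seq table named Crabp1, Crabp2, Rara, Rarb, Rarg, Aldh1a1, Aldh1a2, Aldh1a3 and Cyp26b1, out of 22369 genes in all. The set was chosen by the Crabp1 read count in Nrdc-/- iMEF, which was 0, so its values are given as a description with no test, and the other 8 were taken as its pathway partners.

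Nrdc-/-WT iMEF were Nrdc-/- iMEF in which wild-type Nrdc had been reintroduced by lentivirus. Nrdc-/- iMEF came from Nrdc-deficient mice, and Nrdc+/+ iMEF came from wild-type mice. All were C57BL/6 cells growing asynchronously in medium with fetal bovine serum, and each of the 3 groups had 2 libraries. More than 1 immortalized line per genotype is not stated, so the genotype and the line cannot be told apart. With no library of Nrdc-/- iMEF given an empty virus in this set, reintroduced Nrdc and infection cannot be told apart either. The source of the replicates beyond their being biological is not stated, so p-values measure the spread between these libraries, which may be technical.

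Retinoic acid is made from retinol (vitamin A) in a pair of oxidations, first to retinal and then, by the retinal dehydrogenases of the Aldh1a group, to retinoic acid. It is carried in the cytoplasm by Crabp1 and Crabp2, broken down by hydroxylases of the Cyp26 group, and sensed by the nuclear receptors Rara, Rarb and Rarg, which bind DNA as heterodimers with RXR receptors. In embryonic mesenchyme, the source of these fibroblasts, this pathway is known for its part in patterning, and Rarb is a classical gene induced by retinoic acid through an element in its own promoter.

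That element is shown here because Rarb was among the members that differed most between the lines. The sequence runs 5′ to 3′ over the 250 bases before a start site of Rarb (RefSeq, GRCm38.p6, chr14:16575477-16575726, minus strand), and the capitals mark a direct repeat of 2 receptor-binding hexamers with a spacer of 5 bases (DR5), which begins 53 bases before the start.
Rarb: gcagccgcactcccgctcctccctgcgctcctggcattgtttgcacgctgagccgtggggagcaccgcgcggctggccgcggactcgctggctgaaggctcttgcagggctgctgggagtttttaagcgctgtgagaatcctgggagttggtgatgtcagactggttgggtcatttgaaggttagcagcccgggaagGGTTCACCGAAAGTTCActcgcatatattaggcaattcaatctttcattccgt
The next sequences are those of Crabp1 (chr9:54764498-54764747, plus strand) and Cyp26b1 (chr6:84593811-84594060, minus strand), the members that had 0 or 1 read in every library of 1 line and over 200 reads in another. Capitals mark GC boxes (GGGCGG on either strand), which Sp1-type factors are known to bind.
Crabp1: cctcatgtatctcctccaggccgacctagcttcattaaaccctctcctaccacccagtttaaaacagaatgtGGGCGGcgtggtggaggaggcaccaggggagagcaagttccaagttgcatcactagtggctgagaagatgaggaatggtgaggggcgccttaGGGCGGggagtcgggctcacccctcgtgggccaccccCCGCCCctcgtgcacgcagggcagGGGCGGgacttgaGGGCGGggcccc
Cyp26b1: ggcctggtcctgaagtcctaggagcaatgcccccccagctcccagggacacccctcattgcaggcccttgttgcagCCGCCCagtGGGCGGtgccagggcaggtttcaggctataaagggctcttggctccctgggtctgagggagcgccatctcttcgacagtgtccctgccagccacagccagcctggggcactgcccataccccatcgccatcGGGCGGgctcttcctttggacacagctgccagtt

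The search covered windows of 250 bases before and 50 after each start site in the RefSeq promoter set, on both strands, for the hexamers AGGTCA or AGTTCA or GGGTCA or GGTTCA, for their direct repeats with spacers of 2 (DR2) or 5 bases, and for GC boxes, with overlaps between motifs kept. Of the 9 members, 7 were found there with 12 windows, and Crabp2 and Aldh1a3 were not matched. A DR5 was present in 1 of the 12 windows, that of Rarb, against 0.0974% of all 32851 windows. A DR2 was present in 0 of the 12, against 0.268% of all windows. Hexamers occurred in 5 windows of Rara, Rarb, Rarg and Aldh1a1 (43.7% of all windows), and GC boxes in 6 windows of Crabp1, Rara, Rarg and Cyp26b1 (35.7%). Among 41 matched genes of the wider pathway, Cyp26a1, another retinoic acid hydroxylase, also held a DR5. A match describes letters only. These coordinates belong to another build than the RNA-seq table, which uses mm9.

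The 6 libraries held 16385565 to 19764315 reads over the listed genes, and levels are RPKM, reads scaled to exon length and library size. Nrdc itself, listed as Nrd1 (ENSMUSG00000053510), had 5.89 and 5.40 RPKM in Nrdc-/-WT iMEF, 1.53 and 1.51 RPKM in Nrdc-/- iMEF and 27.9 and 28.9 RPKM in Nrdc+/+ iMEF. The total Nrdc RNA level in Nrdc-/-WT iMEF was thus 5.01-fold below that in Nrdc+/+ iMEF (95% counting interval 4.75 to 5.29). This is RNA only: by immunoblotting and immunocytochemistry, the paper reports similar Nrdc protein in both. The 384 reads over the Nrdc-/- libraries were not assigned to parts of the gene. Of 8 fibroblast markers, 7 (all except Thy1) reached 1 RPKM, with summed levels of 5683 to 5736, 4971 to 5005 and 3642 to 4073 RPKM in Nrdc-/-WT, Nrdc-/- and Nrdc+/+ iMEF. The sum of 5 epithelial markers was 0.925 to 1.08, 0.235 to 0.512 and 7.08 to 7.10 RPKM, and Epcam, Cdh1, Krt8 and Krt18 stayed under 1 RPKM. The sum of 3 adipocyte markers was 0.457 to 0.790, 2.72 to 3.24 and 7.04 to 8.43 RPKM, and that of 4 neural markers was 35.4 to 38.0, 18.3 to 21.1 and 33.5 to 38.1 RPKM, with Sox10 under 1 RPKM. Endothelial and haematopoietic markers summed to under 3 RPKM in every library, with Emr1 at 0, and of 3 skeletal muscle markers Myod1 and Myog were at 0. The part of these markers in the differences below was not tested. In RNA from whole cultures, fewer cells expressing a gene and less RNA per cell cannot be told apart.

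**Figure D1:**
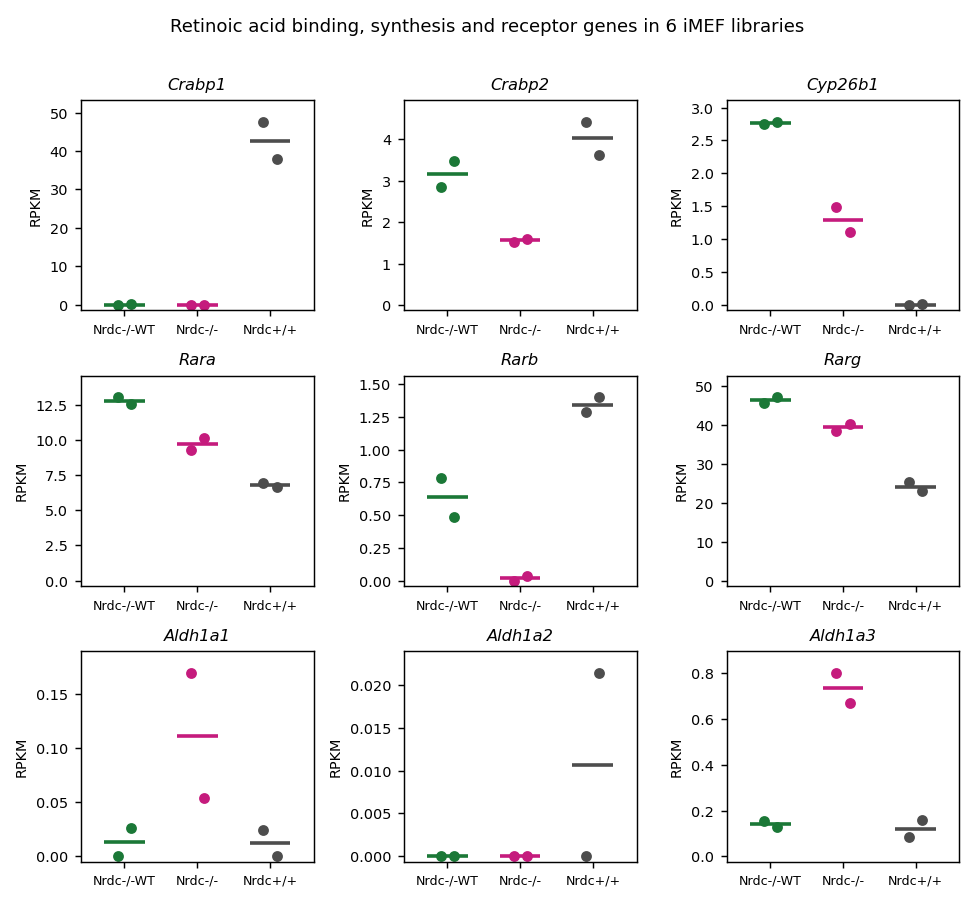
RPKM (vertical axis, linear and scaled to each gene) of the 9 genes by line (horizontal axis), with 1 point per library and a line at the mean of 2 libraries. Crabp1 is high only in Nrdc+/+ iMEF among the 3 lines, Cyp26b1 is at 0 and 0.011 RPKM there, and Rarb is at 0 and 0.034 RPKM in Nrdc-/- iMEF.

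The carriers were Crabp1, a cytoplasmic binding protein known to hold retinoic acid and pass it towards breakdown, and Crabp2, which is known to deliver it to the receptors in the nucleus. Crabp1 (ENSMUSG00000032291, mm9 chr9:54612555-54620917) had 0 and 0.134 RPKM in Nrdc-/-WT iMEF, 0 and 0 RPKM in Nrdc-/- iMEF, and 47.6 and 37.8 RPKM in Nrdc+/+ iMEF. As reads these were 0 and 2, 0 and 0, and 777 and 626. It was therefore abundant in Nrdc+/+ iMEF and at or near 0 in both lines of Nrdc-null origin. Because the set was chosen by the 0 reads of Nrdc-/- iMEF, no fold against Nrdc+/+ iMEF is given for them here. Nrdc-/-WT and Nrdc-/- iMEF had at most 2 reads in any library, so no fold is given between them. Against Nrdc+/+ iMEF, the level in Nrdc-/-WT iMEF was lower by a ratio of 684 (95% counting interval 189 to 5652). That ratio is a description as well, and its interval covers counting error only. All log2 differences here are on log2(RPKM + 0.25), which understates changes of genes near 0, and adjusted p-values, from limma, are taken over all 11598 genes tested.

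The absence of Crabp1 reads did not extend to the genes beside it. Wdr61, 16798 bases away, had 8.15 and 8.25 RPKM in Nrdc-/-WT iMEF, 8.93 and 9.04 RPKM in Nrdc-/- iMEF and 13.3 and 12.9 RPKM in Nrdc+/+ iMEF. Ireb2, on the other side, lay between 15.8 and 23.8 RPKM over the 6 libraries. Both neighbours were thus read in every line, though Wdr61 was lower in both lines of Nrdc-null origin than in Nrdc+/+ iMEF, without overlap.

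By Pearson correlation on log2(RPKM + 0.25) over the 6 libraries, the 5 genes most like Crabp1 among 7919 genes averaging 5 RPKM or more included Ctdp1, Mogat2, Exosc10 and Zmynd19, with r between 0.9993 and 1.0. The 6 points form 3 pairs of libraries, so such a value mainly reflects the split between Nrdc+/+ iMEF and the other lines. Likeness in shape was not likeness in size. Mogat2, an acyltransferase of triglyceride synthesis, had 0.026 and 0.088 RPKM in Nrdc-/-WT iMEF, 0 and 0.030 RPKM in Nrdc-/- iMEF and 15.6 and 14.8 RPKM in Nrdc+/+ iMEF. Zmynd19 had 8.61 and 8.78, 8.65 and 8.55, and 12.5 and 12.5 RPKM in the same order of lines.

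Crabp2 (ENSMUSG00000004885, chr3:87752588-87757298) had 2.84 and 3.49 RPKM in Nrdc-/-WT iMEF, 1.53 and 1.59 RPKM in Nrdc-/- iMEF, and 4.42 and 3.63 RPKM in Nrdc+/+ iMEF. The groups did not overlap, with Nrdc-/- iMEF the lowest. Crabp2 fell by 1.24 on the log2 scale in Nrdc-/- against Nrdc+/+ iMEF (SE 0.14, adjusted p = 7.29e-05) and rose by 0.91 in Nrdc-/-WT against Nrdc-/- iMEF (SE 0.14, adjusted p = 0.000787). Between Nrdc-/-WT and Nrdc+/+ iMEF the difference of -0.32 (95% interval -0.65 to -0.0007, adjusted p = 0.0657) was not called. It was called without Nrdc-/-WT replicate 2 (-0.46, adjusted p = 0.0468), without Nrdc+/+ replicate 2 (-0.46, adjusted p = 0.0401) and after quantile normalization (-0.42, adjusted p = 0.034). So, unlike Crabp1, Crabp2 kept reads in all lines.

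A gene was called where its adjusted p was under 0.05 and its fold reached 1.3, which many genes met. In Nrdc-/- against Nrdc+/+ iMEF, 3 of the 5 members tested were higher (Rara, Rarg, Cyp26b1) and 2 lower (Crabp2, Rarb), beside 32% of all tested genes called higher and 30.2% called lower. In Nrdc-/-WT against Nrdc-/- iMEF, 4 of 5 were higher (Crabp2, Rara, Rarb, Cyp26b1), 0 were lower and Rarg was not called, beside 20.5% of genes called higher and 22.7% lower. In Nrdc-/-WT against Nrdc+/+ iMEF, 3 of 5 were higher (Rara, Rarg, Cyp26b1), 1 was lower (Rarb) and Crabp2 was not called, beside 29.9% higher and 30.6% lower. Crabp1, given as a description only, was left out of these counts. Only 6 of the 9 members passed the filter on low levels, and Crabp1, Rarb and Cyp26b1 did so through the lines in which they are high, so these counts are not support for the set. The 3 comparisons share libraries.

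**Figure D2:**
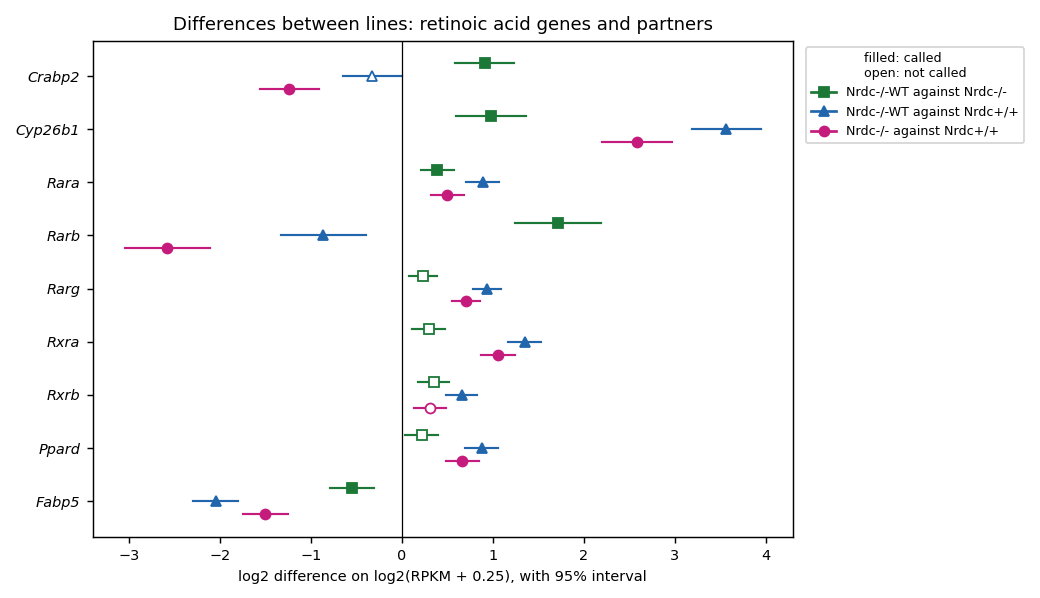
Differences on log2(RPKM + 0.25) (horizontal axis) for 5 tested members and 4 partner genes (vertical axis), with 95% intervals. Symbols give the comparison, filled where called, and Rarb shows -2.58 in Nrdc-/- against Nrdc+/+ iMEF and 1.71 in Nrdc-/-WT against Nrdc-/- iMEF, while Rara and Cyp26b1 are above 0 in all 3 comparisons.

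Among the receptors, Rarb (ENSMUSG00000017491, chr14:17263356-17651381) had 0.784 and 0.488 RPKM in Nrdc-/-WT iMEF, 0 and 0.034 RPKM in Nrdc-/- iMEF, and 1.28 and 1.40 RPKM in Nrdc+/+ iMEF. These rest on 55 and 30, 0 and 2, and 86 and 95 reads. The 3 groups did not overlap, and the Nrdc-/-WT libraries lay between the others. Rarb was lower in Nrdc-/- than in Nrdc+/+ iMEF by a ratio of 78.2 (counting interval 21.3 to 651) and a log2 difference of -2.58 (SE 0.20, adjusted p = 7.99e-06). In Nrdc-/-WT against Nrdc-/- iMEF it was higher by a ratio of 37.7 (10.1 to 316) and a log2 difference of 1.71 (adjusted p = 0.000182). Against Nrdc+/+ iMEF it was still lower in Nrdc-/-WT iMEF, with a log2 difference of -0.86 (SE 0.20, adjusted p = 0.00492). Rarb passed the filter through the lines in which it is high, so the p-values against Nrdc-/- iMEF are not separate support. Top2b, which ends 55 bases from Rarb, had 32.8 and 31.4 RPKM in Nrdc-/-WT iMEF, 47.7 and 44.9 RPKM in Nrdc-/- iMEF and 37.2 and 36.9 RPKM in Nrdc+/+ iMEF, so the near absence of Rarb reads in Nrdc-/- iMEF was not shared by this neighbour. On the other side, Thrb, 842093 bases away, had at most 7 reads in any library and was near 0 in every line.

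Rarg (ENSMUSG00000001288, chr15:102065369-102087948) was the most abundant receptor per length in every library. It had 45.6 and 47.0 RPKM in Nrdc-/-WT iMEF, 38.5 and 40.1 RPKM in Nrdc-/- iMEF and 25.3 and 23.0 RPKM in Nrdc+/+ iMEF, again without overlap. Rarg was higher in Nrdc-/- than in Nrdc+/+ iMEF by 0.70 (SE 0.07, adjusted p = 2.48e-05) and in Nrdc-/-WT than in Nrdc+/+ iMEF by 0.93 (SE 0.07, adjusted p = 4.93e-06). The further 0.24 of Nrdc-/-WT over Nrdc-/- iMEF (95% interval 0.08 to 0.39, adjusted p = 0.0159) was under the 1.3-fold threshold.

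Rara (ENSMUSG00000037992, chr11:98789132-98836256) followed the same order at a lower level. Its values were 13.0 and 12.6 RPKM in Nrdc-/-WT iMEF, 9.30 and 10.1 RPKM in Nrdc-/- iMEF, and 6.95 and 6.63 RPKM in Nrdc+/+ iMEF. The log2 differences were 0.50 for Nrdc-/- against Nrdc+/+ iMEF (SE 0.08, adjusted p = 0.000541) and 0.89 for Nrdc-/-WT against Nrdc+/+ iMEF (SE 0.08, adjusted p = 1.86e-05). That of Nrdc-/-WT against Nrdc-/- iMEF, 0.39 (SE 0.08, adjusted p = 0.00346), stood close to the fold threshold. It fell short of 1.3-fold without Nrdc-/-WT replicate 1 (0.36), without Nrdc-/- replicate 1 (0.33) and with a pseudocount of 1 RPKM (0.36).

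**Figure D3:**
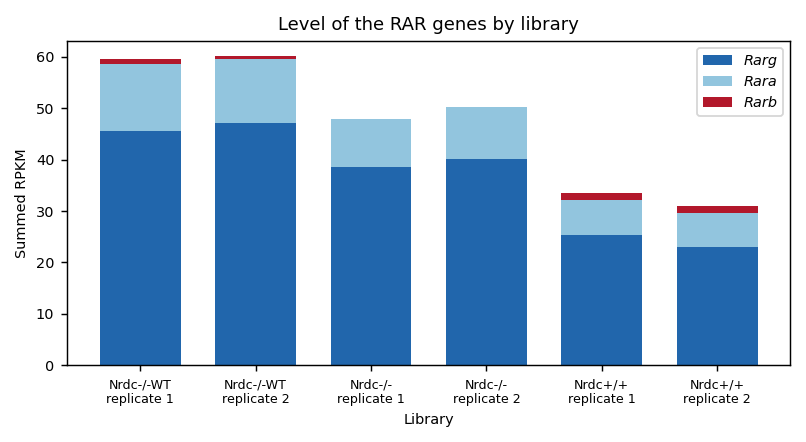
Summed RPKM of Rarg, Rara and Rarb (vertical axis, stacked) in each of 6 libraries (horizontal axis). The sums are 59.4 and 60.1 in Nrdc-/-WT iMEF, 47.8 and 50.3 in Nrdc-/- iMEF and 33.5 and 31.0 in Nrdc+/+ iMEF, with Rarg the largest part in each.

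Summed over the 3 receptors, the level was 59.4 and 60.1 RPKM in Nrdc-/-WT iMEF, 47.8 and 50.3 RPKM in Nrdc-/- iMEF and 33.5 and 31.0 RPKM in Nrdc+/+ iMEF. Rarg made up between 74.1% and 80.6% of this sum and Rara between 19.4% and 21.9%. Their proportions were therefore similar while the total differed between lines. Rarb made up 1.32% and 0.813% in Nrdc-/-WT iMEF, 0% and 0.0666% in Nrdc-/- iMEF, and 3.83% and 4.50% in Nrdc+/+ iMEF.

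Of the 3 RXR genes, their heterodimer partners, Rxra was called higher in both comparisons with Nrdc+/+ iMEF. Rxra had 19.2 and 19.9 RPKM in Nrdc-/-WT iMEF, 15.6 and 16.1 RPKM in Nrdc-/- iMEF and 7.98 and 7.07 RPKM in Nrdc+/+ iMEF, a log2 difference of 1.06 for Nrdc-/- against Nrdc+/+ iMEF (adjusted p = 5.96e-06) and of 1.35 for Nrdc-/-WT against Nrdc+/+ iMEF (adjusted p = 1.59e-06). Rxrb was called higher in Nrdc-/-WT than in Nrdc+/+ iMEF (0.66, adjusted p = 7.96e-05), and its differences of 0.31 in Nrdc-/- against Nrdc+/+ iMEF and 0.35 in Nrdc-/-WT against Nrdc-/- iMEF were under 1.3-fold. The difference between Nrdc-/-WT and Nrdc-/- iMEF was called without Nrdc-/- replicate 2 (0.40) and under both other scalings (0.39 each). Rxrg had 1 read in all 6 libraries together.

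The synthetic enzymes were scarce. Aldh1a3 (ENSMUSG00000015134, chr7:73535778-73572403), the member of the group with the most reads, had 0.152 and 0.128 RPKM in Nrdc-/-WT iMEF, 0.802 and 0.669 RPKM in Nrdc-/- iMEF, and 0.085 and 0.157 RPKM in Nrdc+/+ iMEF. The reads behind these values were 15 and 11, 64 and 56, and 8 and 15. Aldh1a3 thus stood apart in Nrdc-/- iMEF, while Nrdc-/-WT and Nrdc+/+ iMEF overlapped. Its ratio was 6.04 for Nrdc-/- over Nrdc+/+ iMEF (counting interval 3.84 to 9.89) and 1.16 for Nrdc-/-WT over Nrdc+/+ iMEF (0.636 to 2.13), and its level in Nrdc-/-WT iMEF was 5.21-fold below that in Nrdc-/- iMEF (3.39 to 8.29). Aldh1a3 did not reach a mean of 0.5 RPKM and was outside the main test. With no filter it differed by 1.41 in Nrdc-/- against Nrdc+/+ iMEF (adjusted p = 0.000569), by -1.33 in Nrdc-/-WT against Nrdc-/- iMEF (adjusted p = 0.00138) and by 0.08 in Nrdc-/-WT against Nrdc+/+ iMEF (adjusted p = 0.698).

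Aldh1a1 (ENSMUSG00000053279) had 0 and 1 read in Nrdc-/-WT iMEF, 6 and 2 reads in Nrdc-/- iMEF and 1 and 0 reads in Nrdc+/+ iMEF. Without the filter, its difference between Nrdc-/- and Nrdc+/+ iMEF had an adjusted p of 0.0675 on RPKM and of 0.0314 on reads with voom, an alternative added after the data were seen, so the call depended on the test. Aldh1a7, a close paralog on the same chromosome with which reads may be shared, had 0 and 0 reads in Nrdc-/-WT iMEF, 0 and 2 reads in Nrdc-/- iMEF and 18 and 25 reads in Nrdc+/+ iMEF. Aldh1a2 (ENSMUSG00000013584), a main source of retinoic acid in the mouse embryo, had 1 read in all, in Nrdc+/+ replicate 2. At this depth no difference in Aldh1a2 could be detected.

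Cyp26b1 (ENSMUSG00000063415, chr6:84521938-84543740), which hydroxylates retinoic acid and so starts its removal, had 2.75 and 2.78 RPKM in Nrdc-/-WT iMEF, 1.48 and 1.10 RPKM in Nrdc-/- iMEF, and 0 and 0.011 RPKM in Nrdc+/+ iMEF. In reads these were 270 and 239, 118 and 92, and 0 and 1. Unlike Crabp1, Cyp26b1 thus had reads in both lines of Nrdc-null origin and next to none in Nrdc+/+ iMEF. The ratio over Nrdc+/+ iMEF was 243 for Nrdc-/- iMEF (counting interval 43.2 to 9646) and 522 for Nrdc-/-WT iMEF (93.3 to 20666). On the log2 scale Cyp26b1 was higher by 2.58 in Nrdc-/- against Nrdc+/+ iMEF (SE 0.17, adjusted p = 2.25e-06), by 3.56 in Nrdc-/-WT against Nrdc+/+ iMEF (adjusted p = 4.25e-07) and by 0.98 in Nrdc-/-WT against Nrdc-/- iMEF (adjusted p = 0.00126). Cyp26b1 passed the filter through the lines of Nrdc-null origin alone, so the p-values against Nrdc+/+ iMEF are not separate support. Of its neighbours, Exoc6b lay between 4.29 and 5.79 RPKM in all 6 libraries, whereas Dysf, 360884 bases away on the other side, had 2.02 and 2.41 RPKM in Nrdc-/-WT iMEF, 0.319 and 0.331 RPKM in Nrdc-/- iMEF and 3.29 and 3.02 RPKM in Nrdc+/+ iMEF. The related hydroxylases Cyp26a1 and Cyp26c1 had at most 2 reads in any library.

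Of 55 other pathway genes in 8 lists, 31 passed the filter. In Nrdc-/- against Nrdc+/+ iMEF 13 were higher and 5 lower, in Nrdc-/-WT against Nrdc-/- iMEF 6 were higher and 10 lower, and in Nrdc-/-WT against Nrdc+/+ iMEF 12 were higher and 9 lower. Over all tested genes the shares called higher and lower were 32% and 30.2%, 20.5% and 22.7%, and 29.9% and 30.6% in the same order of comparisons. The median log2 differences of the 31 pathway genes were 0.18, 0.07 and 0.06, beside 0.01, -0.02 and -0.02 over all tested genes.

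Rdh10, which oxidizes retinol to retinal, had 8.81 and 8.79 RPKM in Nrdc-/-WT iMEF, 3.03 and 2.72 RPKM in Nrdc-/- iMEF and 2.86 and 2.69 RPKM in Nrdc+/+ iMEF. It was higher in Nrdc-/-WT iMEF than in Nrdc-/- iMEF (1.54, adjusted p = 7.08e-06) and Nrdc+/+ iMEF (1.58, adjusted p = 2.38e-06), while its 0.05 between Nrdc-/- and Nrdc+/+ iMEF (95% interval -0.18 to 0.27, adjusted p = 0.690) was not called and turned to -0.026 without Nrdc-/- replicate 1. Lrat, which esterifies retinol for storage, had 0 reads in every library.

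Dhrs3, which reduces retinal back to retinol, had 0.353 and 0.330 RPKM in Nrdc-/-WT iMEF, 4.78 and 4.13 RPKM in Nrdc-/- iMEF, and 0.436 and 1.11 RPKM in Nrdc+/+ iMEF. It was higher in Nrdc-/- than in Nrdc+/+ iMEF by 2.28 (SE 0.28, adjusted p = 0.000121) and fell by 2.99 in Nrdc-/-WT against Nrdc-/- iMEF (adjusted p = 5.38e-05). Nrdc-/- iMEF were thus high for Dhrs3, as for Aldh1a3. Dhrs3 passed the filter mainly through Nrdc-/- iMEF and was named for the size of its change. The p-values of Dhrs3 against Nrdc-/- iMEF are therefore not separate support. The call of -0.71 between Nrdc-/-WT and Nrdc+/+ iMEF (adjusted p = 0.0498) was lost with any Nrdc-/-WT or Nrdc-/- library left out. It was also lost without Nrdc+/+ replicate 2 (-0.22). Other fits lost it too, among them a pseudocount of 1 RPKM (adjusted p = 0.0674), equal medians (0.0632) and no filter (0.134). Adh7, an alcohol dehydrogenase active on retinol, had 0.752 and 0.732 RPKM in Nrdc-/-WT iMEF, 5.52 and 4.90 RPKM in Nrdc-/- iMEF and 2.33 and 2.33 RPKM in Nrdc+/+ iMEF, and it too was called in all 3 comparisons.

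The list of 17 genes for retinol and retinal interconversion, to which these belong, also held the carotenoid oxygenases Bco1 and Bco2. Of its genes, 10 passed the filter, with 4 higher and 0 lower in Nrdc-/- against Nrdc+/+ iMEF. Nrdc-/-WT against Nrdc-/- iMEF gave 3 higher and 6 lower, and Nrdc-/-WT against Nrdc+/+ iMEF gave 4 in each direction. Bco2 was among the higher genes in each comparison. The shares of all genes called higher and lower there were 32% and 30.2%, 20.5% and 22.7%, and 29.9% and 30.6%. Dhrs9, a retinol dehydrogenase, had 6.63 and 6.84 RPKM in Nrdc-/-WT iMEF, 11.7 and 12.0 RPKM in Nrdc-/- iMEF and 4.15 and 5.44 RPKM in Nrdc+/+ iMEF. It was higher by 1.27 in Nrdc-/- against Nrdc+/+ iMEF (adjusted p = 2.45e-05) and fell by 0.79 in Nrdc-/-WT against Nrdc-/- iMEF (adjusted p = 0.000736). Its 0.48 in Nrdc-/-WT against Nrdc+/+ iMEF (adjusted p = 0.0069) was 0.29, below 1.3-fold, without Nrdc+/+ replicate 1. Bco2, a carotenoid-cleaving oxygenase, instead had the order of Cyp26b1, with 2.28 and 2.18 RPKM in Nrdc-/-WT iMEF, 0.600 and 0.391 RPKM in Nrdc-/- iMEF and 0.046 and 0.046 RPKM in Nrdc+/+ iMEF.

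**Figure D4:**
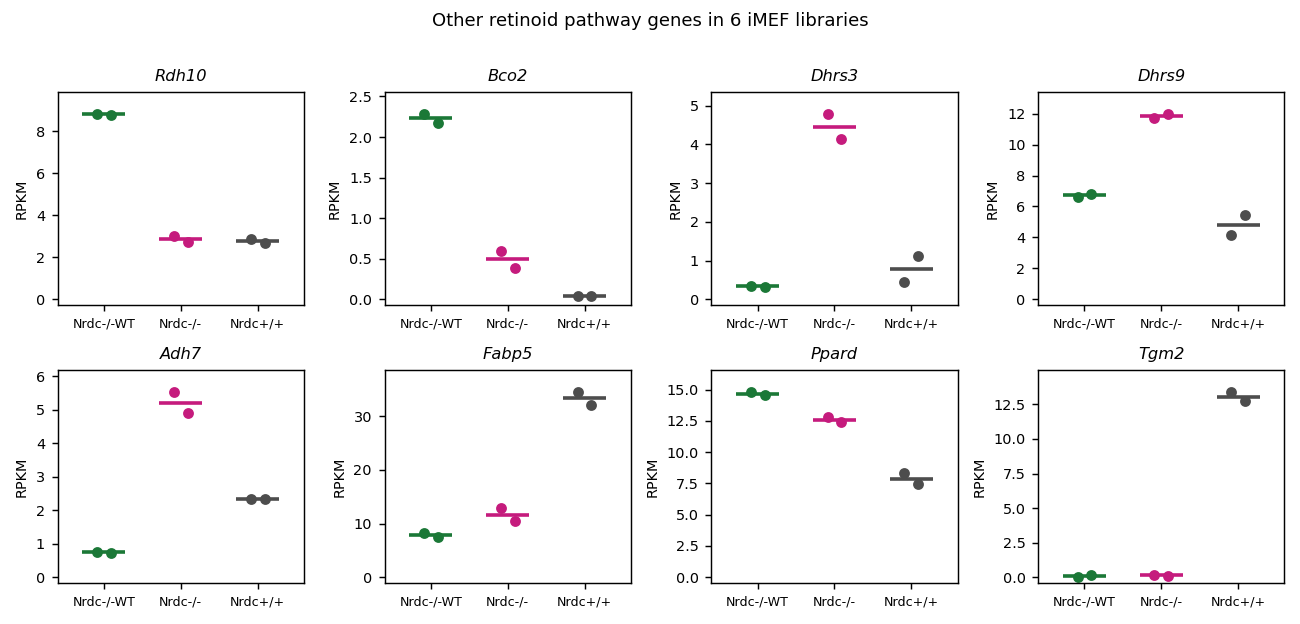
RPKM (vertical axis, linear and scaled to each gene) of 8 other retinoid pathway genes by line (horizontal axis), with 1 point per library and a line at the mean of 2 libraries. Rdh10, Bco2 and Ppard are highest in Nrdc-/-WT iMEF, Dhrs3, Dhrs9 and Adh7 in Nrdc-/- iMEF, and Fabp5 and Tgm2 in Nrdc+/+ iMEF, where Tgm2 has 13.4 and 12.7 RPKM.

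Fabp5, a fatty acid-binding protein that can also carry retinoic acid to the receptor Ppard, had 8.19 and 7.54 RPKM in Nrdc-/-WT iMEF, 12.9 and 10.4 RPKM in Nrdc-/- iMEF and 34.5 and 32.2 RPKM in Nrdc+/+ iMEF. Its log2 difference was -1.50 in Nrdc-/- against Nrdc+/+ iMEF (adjusted p = 4.08e-06) and -2.05 in Nrdc-/-WT against Nrdc+/+ iMEF (adjusted p = 7.90e-07), although pseudogenes of Fabp5 could take some of its reads. Ppard itself was higher by 0.66 and 0.88 in the same comparisons (adjusted p = 9.39e-05 and 1.85e-05).

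Among 13 genes known to be induced by retinoic acid, 7 passed the filter, with 2 higher and 2 lower in Nrdc-/- against Nrdc+/+ iMEF, beside 32% higher and 30.2% lower of all genes. Tgm2, the tissue transglutaminase, had 0.041 and 0.128 RPKM in Nrdc-/-WT iMEF, 0.138 and 0.120 RPKM in Nrdc-/- iMEF and 13.4 and 12.7 RPKM in Nrdc+/+ iMEF. It fell by 5.14 in Nrdc-/- against Nrdc+/+ iMEF (SE 0.17, adjusted p = 4.49e-08), and like Crabp1 it was near 0 in both lines of Nrdc-null origin. Tgm2 passed the filter through Nrdc+/+ iMEF alone and was named for the size of its change, so this p-value is not separate support. The homeobox genes Meis1 and Meis2 went opposite ways in Nrdc-/- against Nrdc+/+ iMEF, at 1.25 (adjusted p = 9.18e-06) and -1.69 (adjusted p = 1.41e-06). In Nrdc-/-WT against Nrdc-/- iMEF, Hoxa5 was the only called gene of this list, higher by 0.45 (0.38, below 1.3-fold, without Nrdc-/- replicate 2), except that Tgm2 was called lower (-0.52) after quantile normalization.

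Of the 9 receptor coregulators, which all passed the filter, 4 were higher and 2 lower in Nrdc-/- against Nrdc+/+ iMEF, again beside 32% and 30.2% of all genes. The coactivator Ncoa1 had 0.922 and 1.24 RPKM in Nrdc-/-WT iMEF, 4.05 and 4.41 RPKM in Nrdc-/- iMEF and 2.32 and 2.34 RPKM in Nrdc+/+ iMEF, with log2 differences of 0.80 for Nrdc-/- against Nrdc+/+ iMEF (adjusted p = 0.000979) and -1.76 for Nrdc-/-WT against Nrdc-/- iMEF (adjusted p = 2.14e-05). In Nrdc-/- against Nrdc+/+ iMEF the acetyltransferase Crebbp was higher by 0.94 (adjusted p = 5.68e-05), while its relative Ep300 fell by 0.41 (adjusted p = 0.00237) and the corepressor-bound deacetylase Hdac3 fell by 0.69 (adjusted p = 6.51e-05).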

How the data were processed

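RNA-seq was analysed in 6 libraries, 2 per line, grouped by sample labels. Polyadenylated RNA was sequenced on the Ion Proton. Per the labels and methods, the authors aligned reads to mm9 with STAR and Bowtie2, counted them with featureCounts and calculated RPKM with edgeR, and they deposited log2 RPKM values. No version of these tools is given in the sources used here. The deposited log2 values hold a constant worth 0.912 to 1.124 reads per library, which was removed, and 100% of low values then gave whole reads within 0.05. Log2 values are another unit than the planned RPKM, so the planned test was run after conversion.

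Genes averaging 0.5 RPKM or more were fitted in R 4.3.3 with limma 3.58.1 on log2(RPKM + 0.25) across the 6 libraries, using lmFit and trended eBayes, with Benjamini-Hochberg adjustment. The code was tested on simulated data. Ratios of reads carry exact 95% intervals for counting error only. Named genes were the 9 members, Nrdc, the 5 genes most like Crabp1, all genes of pathway lists of up to 3 genes and up to 4 called genes with the largest change in longer lists. Genes of the longer lists were thus named for the size of their change, so their p-values are not separate support. Genes near members, genes at or near 0, Ep300 and Aldh1a paralogs were named after their values were seen. A few genes that the rule names are not reported here. The members and lists were chosen with earlier results of these data known. Strand is not stated, so genes such as Tgm2, Meis1, Ncoa1, Ncoa3, Ncor1 and Hoxa genes may share reads with overlapping genes. Promoter sequences are from RefSeq (GRCm38.p6). Figures used Python 3.11.15 and matplotlib 3.10.9. Alternatives were other pseudocounts, filters, scalings, thresholds and fits, a replicate block and leaving out each library.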

Additional observations from a re-analysis of the deposited data

How the results depend on the processing

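The counts of called genes and of called members stayed within 1.5 times of the main values under every alternative run. For Nrdc-/-WT against Nrdc+/+ iMEF the member count used here was 5, because it included Crabp1. With each library left out in turn, 6906 to 7170 genes were called in Nrdc-/- against Nrdc+/+ iMEF, 4586 to 5038 in Nrdc-/-WT against Nrdc-/- iMEF and 6743 to 6958 in Nrdc-/-WT against Nrdc+/+ iMEF, with a lone library assumed to vary like the others. A replicate block gave 7218, 5002 and 7022 called genes, beside 7206, 5008 and 7009 without it. The deviations of libraries with the same number correlated between groups at 0.0096, -0.10 and -0.03, so the numbers were not taken as pairs. Among named genes, differences that had not been called changed sign for Rdh10 in Nrdc-/- against Nrdc+/+ iMEF (-0.066 after quantile normalization, and from -0.026, without Nrdc-/- replicate 1, to 0.12 with 1 library left out) and Ncoa2 in Nrdc-/-WT against Nrdc+/+ iMEF (-0.021 after quantile normalization). Calls of named genes were lost in 22 cases and gained in 9, and the cause was not tested. The size of the Crabp1 difference between Nrdc-/- and Nrdc+/+ iMEF follows the pseudocount, because 1 group has no reads, and it is not given. With voom on reads and no filter, chosen after seeing the data, the differences between Nrdc-/- and Nrdc+/+ iMEF were -6.13 for Rarb and 7.12 for Cyp26b1. Members under about 10 reads per library, such as Aldh1a1 and Aldh1a2, are limited by depth.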
